A study of Mus musculus with 18 samples.

Results

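Uninfected mouse TKO cells, the cells of this study that carried no p53 construct, were measured on 9 of the 18 expression arrays. The comparison set the 3 arrays numbered replicate 3 against the 6 arrays numbered replicate 1 or 2. Arrays were assigned by their titles, but the comparison was chosen with earlier results known, among them that replicate 3 lay apart. Each replicate number held 1 array of untreated cells at 0 h, 1 of cells given 100 nM 4-hydroxytamoxifen (4-OHT) for 4 h, and 1 of cells given vehicle for 4 h. The other 9 arrays, in the same 3 groups with the same 3 numbers, were of TKO cells that expressed p53ER, a fusion of p53 to the estrogen receptor that 4-OHT switches on. All 18 samples were labelled as telomere dysfunctional TKO cells grown in DMEM with serum, and the labels give neither the genes behind the name TKO nor a tissue. RNA was total RNA, hybridised as biotinylated cRNA to Affymetrix arrays.

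The labels do not say what a replicate number stands for, such as a culture, a passage or a day. If the 3 arrays of a number came from 1 culture, the comparison is of 1 culture with a pair of others, and the p-values below measure the spread between arrays only. Values are on a log2 scale: a log2 signal is log2 of the scaled signal plus 4.13, so a signal of 0 reads 2.05, and a log2 difference is replicate 3 minus replicates 1 and 2 within treatment group, from a linear model of the 9 arrays. A gene is called where its Benjamini-Hochberg adjusted p over all 10916 tested genes was under 0.05.

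NRF2 and the aryl hydrocarbon receptor are transcription factors that switch on enzymes which oxidise, conjugate and export reactive compounds, and the aldehyde dehydrogenases oxidise aldehydes, among them the precursor of retinoic acid. Lysosomes degrade material with acid hydrolases such as the cathepsins, and their genes share control by the transcription factors TFEB, TFE3 and MITF. Chemokines are secreted attractants of white blood cells, and many are switched on by NF-kB. Mesenchymal cells such as fibroblasts make the collagens, elastin and matrix proteins of connective tissue and contract through smooth muscle actin and its partners.

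Of 10916 genes, 978 (8.96%) were called, 414 (3.79%) higher and 564 (5.17%) lower in replicate 3. The differences were larger downward: 225 genes were lower by more than 2-fold and 37 by more than 4-fold, against 83 and 7 that were higher by as much. All 978 had the same sign at 0 h, with 4-OHT and with vehicle, as had 5354 of all 10916 tested genes. The call was made on these same arrays and so favours such agreement. In 886 of the 978 (90.6%) the 3 arrays of replicate 3 lay wholly outside the range of the other 6. Over all tested genes, 1817 (16.6%) were so separated, 881 (8.07%) high and 936 (8.57%) low. The differences measured in untreated cells and in the treated groups correlated across genes at r = 0.407 (0 h with 4-OHT), 0.404 (0 h with vehicle) and 0.618 (4-OHT with vehicle), which describes 1 array against a pair in each group. The count moved with single arrays: it was 231 without the 4-OHT array of replicate 3, 239 without its vehicle array, 377 without its 0 h array, 490 without the 4-OHT array of replicate 1, 523 without the vehicle array of replicate 1 and 2139 without the 0 h array of replicate 2. Against replicate 2 alone 307 genes were called, and against replicate 1 alone 2561.

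The arrays themselves differed. Before scaling, the replicate 3 arrays were the dimmest of the 9, with trimmed mean signals of 47.5 to 50.9 against 58.1 to 121, and their scale factors ran from 1.62 to 1.74 against 0.683 to 1.42. The ratio of 3′ to 5′ probe sets, a sign of RNA quality, was 1.00 to 1.09 against 1.08 to 1.22 for actin and 0.860 to 0.897 against 0.800 to 0.841 for Gapdh. Among the 2729 dimmest genes the median difference was -0.09, with 25 genes higher and 90 lower. Among the 2729 brightest it was 0.08, with 175 higher and 210 lower. The part of these array measures in the results was not tested. On the first principal component of the 9 arrays, after removal of treatment group means (38.2% of the variance), replicate 3 lay at 30.2 to 31.9, replicate 1 at -23.3 to -21.8 and replicate 2 at -10 to -6.9. The 0 h array of replicate 2 stood apart on the second (28.8%), at 47.8, and had the lowest median correlation with the other 8 arrays, 0.901.

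**Figure D1:**
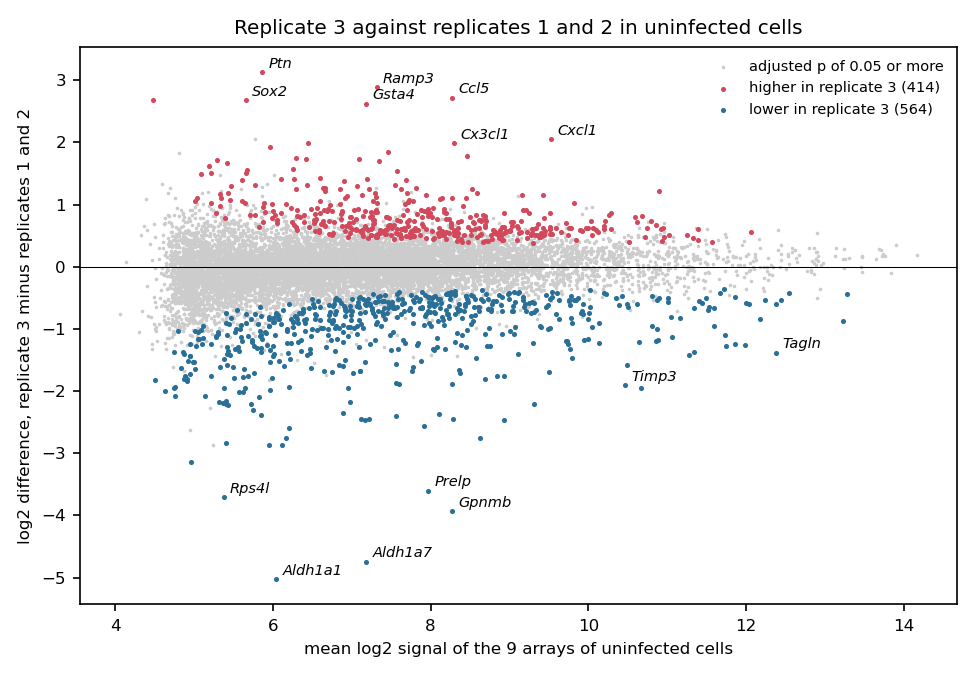
Log2 difference of replicate 3 minus replicates 1 and 2 in uninfected cells (y axis) against the mean log2 signal of the 9 arrays (x axis), 1 point per tested gene, coloured where the adjusted p was under 0.05. The 564 genes below the line reach -5.02 (Aldh1a1) and the 414 above it reach 3.13 (Ptn).

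The largest decrease was of Aldh1a1, the cytosolic retinaldehyde dehydrogenase. Its log2 signal in replicate 3 was 2.74 at 0 h, 2.85 with 4-OHT and 2.51 with vehicle, close to the 2.05 that stands for no signal. In the other 6 arrays it ran from 7.09 to 8.29, with a median of 7.78. The log2 difference was -5.02 (SE 0.35, adjusted p = 0.000134), and since the low side is near the floor its size depends on the offset: it was -6.48 with none and -3.56 with a larger one. Gpnmb, a glycoprotein of lysosomes and melanosomes under MITF control, read 5.74, 5.52 and 5.71 in replicate 3, in the same order of groups, against 8.95 to 10.03 (median 9.74). Its difference of -3.93 (SE 0.20, adjusted p = 1.52e-05) is a 15.2-fold lower signal.

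The other markers moved up, and neither gene's arrays overlapped. Gsta4, a glutathione transferase that detoxifies the lipid aldehyde 4-hydroxynonenal, read 8.93, 8.99 and 8.86 in replicate 3 and 5.41 to 6.94 (median 6.28) in the rest, a log2 difference of 2.62 (SE 0.24, adjusted p = 0.000356) or 6.16-fold. Cx3cl1, the membrane-anchored chemokine fractalkine, read 9.20, 9.81 and 9.88 against 7.13 to 8.15 (median 7.74), a difference of 1.99 (SE 0.12, adjusted p = 2.52e-05). A further probe set of Cx3cl1 differed by 2.04 (adjusted p = 0.00434 over all probe sets). Leaving out any 1 of the 9 arrays kept all 4 markers called, with Aldh1a1 between -5.19 and -4.85 and Gsta4 between 2.40 and 2.77.

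**Figure D2:**
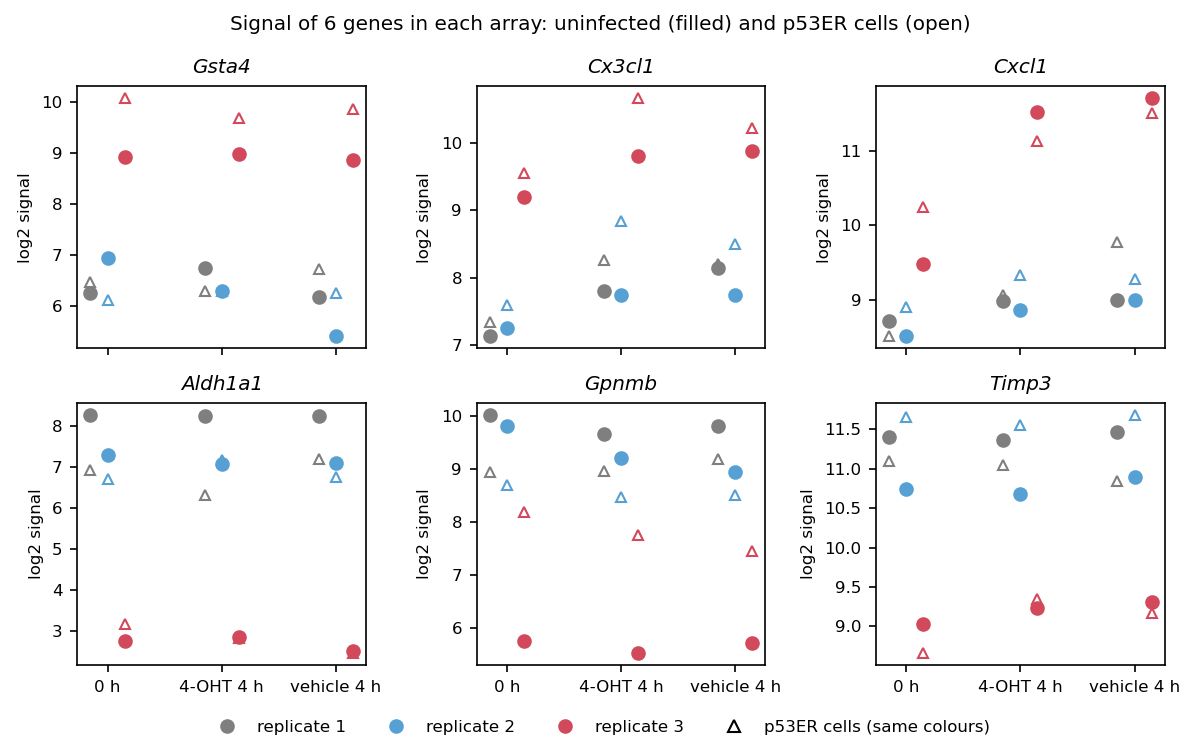
Log2 signal (y axis) of Gsta4, Cx3cl1, Cxcl1, Aldh1a1, Gpnmb and Timp3 in each of the 18 arrays, by treatment group (x axis) and replicate number (colour), filled for uninfected and open for p53ER cells. In every panel the 3 filled points of replicate 3 lie outside the other 6, and for Gpnmb the open replicate 3 points lie at 7.44 to 8.19, between the uninfected sets.

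The 15 largest increases given here were taken from called genes whose replicate 3 arrays all lay above the other 6. Lack of overlap was thus a condition of the choice. It left out Lif (1.78), whose arrays overlapped. The 15 held secreted, signalling and lineage genes. Ptn, the heparin-binding growth factor pleiotrophin, read 7.35 at 0 h, 8.22 with 4-OHT and 8.29 with vehicle in replicate 3, and 4.72 to 4.93 (median 4.80) elsewhere, an 8.74-fold difference (log2 3.13, SE 0.22, adjusted p = 6.51e-05). One further probe set of Ptn moved with it (3.97, adjusted p = 0.000625), while another was not called (-0.18, adjusted p = 0.882). Ramp3 partners the calcitonin receptor-like receptor to make a receptor for adrenomedullin. It read 9.10, 9.48 and 9.13 against 6.14 to 6.61 (median 6.34) and was higher (log2 2.89, SE 0.13, adjusted p = 7.78e-06). Its ligand gene Adm was lower, at 5.69 to 6.30 in replicate 3 against 6.94 to 8.27 (log2 -1.67, SE 0.29, adjusted p = 0.00946, and 0.0635 without the vehicle array of replicate 3).

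Sox2, a transcription factor of stem and neural progenitor cells, read 6.99, 7.72 and 7.64 in replicate 3 and 4.26 to 5.42 (median 4.76) in the rest (log2 2.69, SE 0.29, adjusted p = 0.000611). Its relative Sox5 was higher by 1.93 and the retinoic acid binding protein gene Crabp1 by 1.99. A4galt, the enzyme that makes the glycolipid Gb3, was higher by 2.69 from a low level of 3.10 to 4.13. The remaining genes of the 15 not described elsewhere were Dpt (dermatopontin, a matrix protein, 1.74), Upp1 (uridine phosphorylase, 1.73), Rgs16 (a brake on G protein signalling, 1.71) and Plat (tissue plasminogen activator, 1.69). Rgs16 was the least stable of these: its adjusted p of 0.0192 became 0.143 without the vehicle array of replicate 3, and its call was also lost without either other replicate 3 array.

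Among the 15 largest decreases, Aldh1a7, a close paralog of Aldh1a1, read 4.69 at 0 h, 3.79 with 4-OHT and 3.58 with vehicle in replicate 3 against 8.09 to 9.36 (median 8.87), a 26.8-fold difference (log2 -4.74, SE 0.33, adjusted p = 0.00023). Prelp, a small leucine-rich proteoglycan that anchors basement membranes, read 5.83, 5.31 and 5.57 against 8.28 to 9.86 (median 9.40; log2 -3.60, SE 0.34, adjusted p = 0.000964). The 15 decreases were taken from called genes whose replicate 3 arrays all lay below the other 6, so none could overlap. Whether the Aldh1a1 and Aldh1a7 probe sets read each other's transcripts was not tested. Rps4l and Rpl39l, retrogene-like copies of ribosomal protein genes, were lower by 3.71 and 2.75, and Rps4l read 2.60 to 3.23 in replicate 3, near the floor. How far probe sets of such copies read their parent genes was not tested.

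The other large decreases covered metabolism, growth control and matrix. Cdo1, which starts the breakdown of cysteine, was lower by 2.87 and the peroxiredoxin-like Prxl2b by 3.14. Prxl2b read 2.78 to 3.03 in replicate 3, near the floor, and its difference ran from -4.26 to -1.97 over the alternatives tried. Gpx3, a secreted glutathione peroxidase, read 6.60 to 7.07 in replicate 3, 8.66 to 9.03 in replicate 2 and 10.12 to 10.31 in replicate 1 (log2 -2.75, SE 0.46, adjusted p = 0.0136). Rasgrp3, an activator of Ras, was lower by 2.86, the epithelial keratin gene Krt7 by 2.83, the imprinted growth suppressor Ndn by 2.59, the matrix fibulin Efemp1 by 2.56 and the protease Prss23 by 2.46. Gas6, the ligand of the receptor Axl, was lower by 2.46 (SE 0.39, adjusted p = 0.00917), and Axl by 0.47 (adjusted p = 0.024). Without the 4-OHT array of replicate 3 the adjusted p of Gpx3 was 0.0891, of Gas6 0.0824 and of Krt7 0.0728, and calls were also lost without the vehicle array (Gpx3, Gas6) or the 0 h array (Gpx3, Krt7). The other 12 of these decreases were called with each of the 9 arrays left out. Replicates 1 and 2 also differed from each other, with replicate 2 the lower, in 6 of the 15: Gpx3 (replicate 2 minus 1, -1.40, adjusted p = 0.00483), Gas6 (-1.16, adjusted p = 0.0171), Aldh1a1 (-1.11, adjusted p = 0.0229), Prelp (-1.01, adjusted p = 0.0174), Aldh1a7 (-0.97, adjusted p = 0.0435) and Prss23 (-0.77, adjusted p = 0.0183). In these 6 genes replicate 3 lay below both, which the choice of genes without overlap required.

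**Figure D3:**
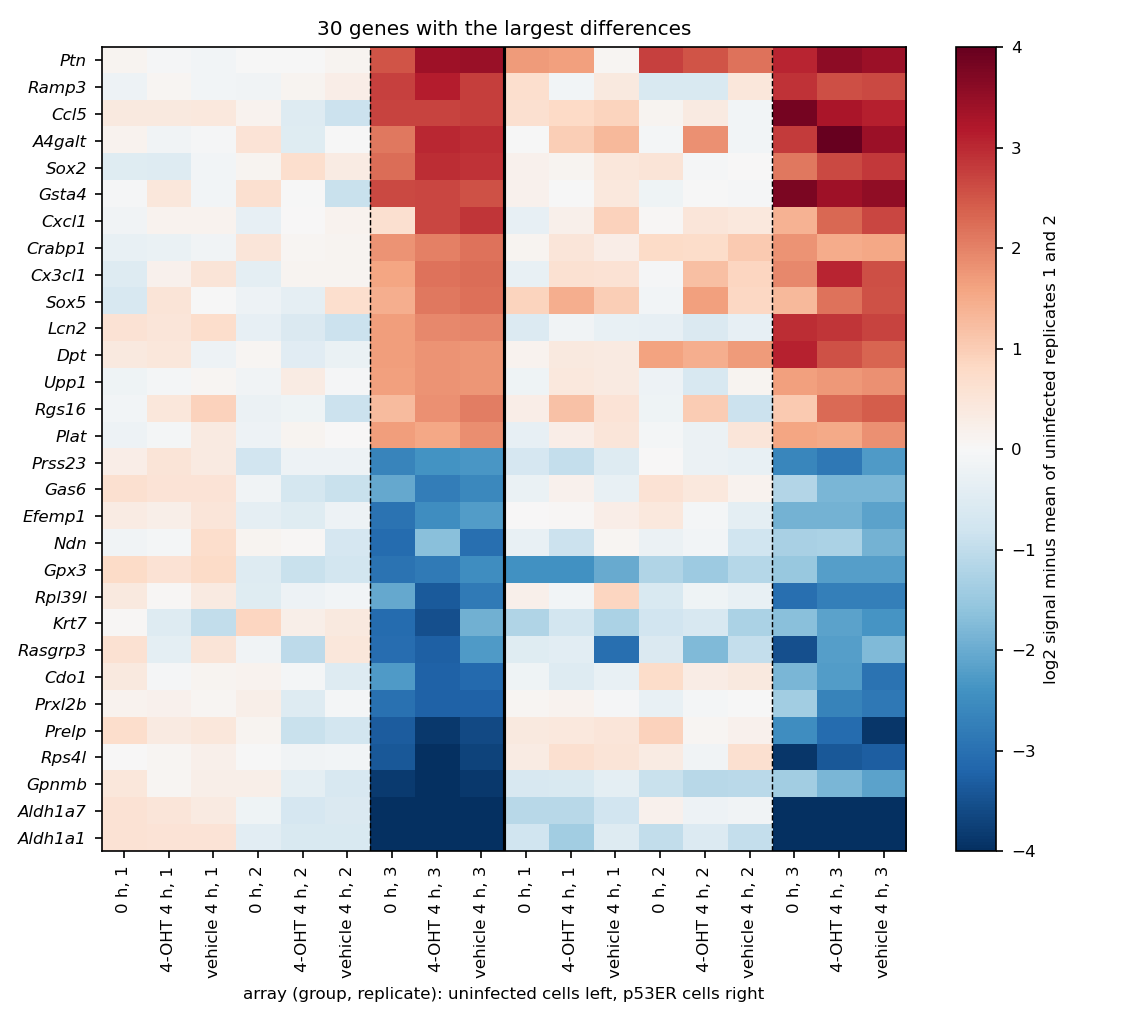
Log2 signal of the 15 most increased and 15 most decreased genes (rows) among called genes without overlap in uninfected cells. Columns are arrays (uninfected left and p53ER right), minus the mean of uninfected replicates 1 and 2, with colour limited at 4 either way. The 3 uninfected replicate 3 columns are uniformly red above and blue below, which the choice of genes without overlap fixed in advance. Rows such as Gpx3 and Gpnmb are paler or shifted in p53ER cells.

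Detoxification genes moved in both directions. Of 29 tested NRF2 antioxidant targets, 8 were higher and 4 lower. This is 41.4% called, against 8.96% of all tested genes, with a median difference of 0.16 against 0.01. Beside Gsta4, the higher members were enzymes of glutathione and thiol supply and NADPH: Gsr (1.18), the cystine carrier Slc7a11 (1.07), Srxn1 (0.65), Gclc (0.63), Nqo1 (0.60) and Pgd (0.57), with the exporter Abcc1 (0.47). The lower members were Mgst1 (microsomal glutathione transferase), Gstm2, Ephx1 (epoxide hydrolase) and Hmox1 (heme oxygenase). Mgst1 read 7.64 to 7.69 in replicate 3 and 9.12 to 9.81 (median 9.41) in the rest (log2 -1.76, SE 0.18, adjusted p = 0.000527), and Gstm2 was lower by 1.58 (adjusted p = 0.00155). Replicate 2 of Mgst1 lay below replicate 1 (-0.55, adjusted p = 0.0435). The glutathione transferase genes thus lay on both sides, with Gsta4 as the largest increase and Mgst1 and Gstm2 the largest decreases of the list.

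Of 8 tested aryl hydrocarbon receptor targets, 3 were higher and none lower (37.5% called, against 8.96% of all tested genes). Cyp1a1, the classic target and a monooxygenase of aromatic compounds, read 7.93 at 0 h, 9.25 with 4-OHT and 8.64 with vehicle in replicate 3 and 6.15 to 7.84 (median 7.16) in the rest, a log2 difference of 1.55 (SE 0.21, adjusted p = 0.00214). Aldh3a1 was higher by 0.80 (adjusted p = 0.0329) and Nqo1 by 0.60 (adjusted p = 0.0135). Both lost the call without the 4-OHT array of replicate 3 (adjusted p = 0.236 and 0.128) or its vehicle array, and Aldh3a1 also without any 1 of 4 arrays of replicates 1 and 2. Of 15 aldehyde dehydrogenases, Aldh1a1 and Aldh1a7 were lower, Aldh3a1 was higher, and 12 did not pass. This is 20% called, against 8.96% of all tested genes, with a list median of -0.03. Of 11 genes of retinoid handling and response, 36.4% were called, against 8.96% of all tested genes. Crabp1 (1.99) and the retinoic acid hydroxylase gene Cyp26b1 (0.76) were higher. Dhrs3 (-2.20), which reduces retinaldehyde, and the transglutaminase gene Tgm2 (-1.41) were lower. Dhrs3 lost its call without the vehicle (adjusted p = 0.0826) or the 4-OHT array of replicate 3.

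Promoter sequences were read for genes of the detoxification and NF-kB groups, from the RefSeq table for GRCm38.p6, 250 bases before to 50 after a start, and 8874 of the tested genes had an entry. The core of the antioxidant response element bound by NRF2 was searched as TGACNNNGC on both strands. It was present in 12.4% of all 32851 promoters, in 16.6% of those of tested genes, in 20.4% of those of called genes higher in replicate 3 and in 16.9% of those lower. Mgst1 has 2 entries, of which the upstream holds a match, shown in capitals (chr6:138140277-138140576, plus strand):
Mgst1: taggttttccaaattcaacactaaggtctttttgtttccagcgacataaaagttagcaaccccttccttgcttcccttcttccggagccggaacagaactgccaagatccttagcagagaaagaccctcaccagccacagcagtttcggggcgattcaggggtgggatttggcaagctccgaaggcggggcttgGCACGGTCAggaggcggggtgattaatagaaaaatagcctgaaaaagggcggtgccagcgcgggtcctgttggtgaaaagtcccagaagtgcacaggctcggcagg
The other entry has no match. The core searched for the aryl hydrocarbon receptor, GCGTG, is short and was in 32.4% of all promoters, in 56.2% of promoters of tested genes, in 64.1% of the higher and 51.3% of the lower called genes.

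Lysosomal genes that passed were all lower. Of 28 tested, 12 were lower and none higher, so that 42.9% passed against 8.96% of all tested genes. The median difference was -0.48. In 16 all replicate 3 arrays lay below the other 6 and in 1 above, against 8.57% and 8.07% of all tested genes. Gpnmb led, followed by Ctsk (cathepsin K, a collagen-degrading protease, -1.57), Neu1 (the sialidase, -1.32) and, further down the list, Ctsa (-1.27), Ctsd (-1.14) and the progranulin gene Grn (-0.96). Ctsk read 6.35 at 0 h, 6.5 with 4-OHT and 6.72 with vehicle in replicate 3 and 7.83 to 8.41 (median 8.07) in the rest (SE 0.16, adjusted p = 0.000527). The membrane proteins Lamp2 (-0.84) and Lamp1 (-0.58) and the proton pump subunits Atp6v1a (-0.64) and Atp6v0d1 (-0.51) were also called. Neu1 lost the call without the vehicle array of replicate 3 (adjusted p = 0.0906) or its 4-OHT array. Under the alternatives tried, the list median stayed between -0.55 and -0.37. Between replicates 2 and 1 the list median was -0.20, with 2 genes lower.

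Chemokine genes that passed were higher with a single exception. Of 17 tested, 6 were higher and 1 lower (41.2% called, against 8.96% of all tested genes), with a median of 0.82. Ccl5 (RANTES), which attracts T cells and monocytes, read 10.06, 10.08 and 10.12 in replicate 3 and 6.52 to 7.80 (median 7.62) elsewhere, a 6.60-fold difference (log2 2.72, SE 0.30, adjusted p = 0.0017). Cxcl1, a neutrophil attractant, read 9.48 at 0 h, 11.52 with 4-OHT and 11.71 with vehicle in replicate 3 and 8.51 to 9 (median 8.93) in the rest (log2 2.06, SE 0.32, adjusted p = 0.00828). Its difference was 0.86 at 0 h, 2.60 with 4-OHT and 2.72 with vehicle, so that the arrays at 4 h held most of it, and without the 4-OHT or vehicle array of replicate 3 it was no longer called (highest adjusted p = 0.0654). Cxcl10 (1.39), Ccl7 (0.82) and Ccl9 (0.66) were also higher. Cxcl12, which holds blood stem cells in their niche, was lower by 1.20 (adjusted p = 0.0097).

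Of 17 NF-kB targets, 6 were higher and none lower (35.3% called, against 8.96% of all tested genes), with a median of 0.36. Lcn2 (lipocalin 2, which binds bacterial siderophores) read 8.51, 8.76 and 8.81 in replicate 3. It read 7.32 to 7.55 in replicate 1 and 5.98 to 6.53 in replicate 2, so replicates 1 and 2 also differed from each other (replicate 2 minus 1, -1.17, adjusted p = 0.0173). The difference of replicate 3 was 1.85 (SE 0.40, adjusted p = 0.0309), and its call was lost without any of 5 single arrays (highest adjusted p = 0.166, without the vehicle array of replicate 3). Traf1 (1.17, adjusted p = 0.0496), Nfkbie (0.98, adjusted p = 0.045), Nfkb2 (0.65), Sod2 (0.63) and Nfkbia (0.52) made up the rest, and Traf1 and Nfkbie each lost the call without any of 7 single arrays, the 3 of replicate 3 among them (highest adjusted p = 0.228 and 0.212).

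Of 18 IL-6 family and growth factor genes, 2 were higher and 1 lower (16.7% called, against 8.96% of all tested genes). Lif, which signals through gp130, read 7.89 at 0 h, 10.49 with 4-OHT and 10.57 with vehicle in replicate 3. Each value lay above the other arrays of its own treatment group (log2 1.78, SE 0.22, adjusted p = 0.00157). Its replicate 3 array at 0 h overlapped the other arrays, which ran from 6.70 at 0 h to 8.68 at 4 h. Vegfa was higher by 0.91 (adjusted p = 0.00523), and was not called without the vehicle (adjusted p = 0.0653) or 4-OHT array of replicate 3. Csf1, the macrophage growth factor, was lower, at 9.32 to 9.49 against 9.97 to 10.58 (log2 -0.97, SE 0.15, adjusted p = 0.005), and its adjusted p was 0.0517 without the 4-OHT array of replicate 3.

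A pair of these genes that moved in opposite directions carry a match to the NF-kB motif, searched on both strands as GGG, 2 bases of any kind and TTTCC, and are shown for that contrast with matches in capitals. Cxcl1 (chr5:90890995-90891294, plus strand) has a pair of matches close together, and Csf1 (chr3:107760420-107760719, minus strand) has a single match.
Cxcl1: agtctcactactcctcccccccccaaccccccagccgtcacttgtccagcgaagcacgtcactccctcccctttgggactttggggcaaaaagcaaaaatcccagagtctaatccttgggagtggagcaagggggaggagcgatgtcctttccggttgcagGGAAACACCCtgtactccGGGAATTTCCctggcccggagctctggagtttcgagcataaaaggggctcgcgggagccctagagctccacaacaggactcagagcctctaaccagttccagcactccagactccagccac
Csf1: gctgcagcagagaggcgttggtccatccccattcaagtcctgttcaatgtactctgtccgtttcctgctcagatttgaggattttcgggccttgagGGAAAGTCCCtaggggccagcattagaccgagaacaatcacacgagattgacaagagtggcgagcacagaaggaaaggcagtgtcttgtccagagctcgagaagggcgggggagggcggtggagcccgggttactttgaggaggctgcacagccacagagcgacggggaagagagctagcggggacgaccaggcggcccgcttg
The motif was in 1.63% of all promoters, in 2.06% of those of tested genes, in 11 of 329 (3.34%) of the higher called genes and in 6 of 450 (1.33%) of the lower. A match is a description of the letters and not of binding.

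Of 33 tested matrix and protease genes, 10 were lower and 2 higher (36.4% called, against 8.96% of all tested genes). The list median was -0.35, and -0.23 between replicates 2 and 1, with 4 genes lower in replicate 2. Timp3, a matrix-bound inhibitor of metalloproteinases, read 9.03 at 0 h, 9.23 with 4-OHT and 9.31 with vehicle in replicate 3 and 10.68 to 11.47 (median 11.13) in the rest (log2 -1.90, SE 0.21, adjusted p = 0.00086), and replicate 2 lay below replicate 1 (-0.64, adjusted p = 0.0161). Thbs2 (-1.42), Thbs1 (-1.27), the collagen cross-linking enzyme gene Lox (-1.26), Col1a1 (-1.24), Eln (-1.23) and Col5a2 (-0.84) were lower, while Plat (1.69) and Col6a2 (0.86) were higher. Col1a1 is among the brightest of them and read 10.95 to 11.15 in replicate 3 against 11.85 to 12.76 in the rest, with no overlap.

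Of 17 genes of TGF-beta and BMP response, 6 were lower and 3 higher (52.9% called, against 8.96% of all tested genes). The list median was -0.45, and -0.24 between replicates 2 and 1. The lower genes included the smooth muscle contractile genes Cnn1 (calponin, -1.70, SE 0.14, adjusted p = 0.00015), Tagln (-1.38) and Acta2 (-0.87), and the ligand gene Tgfb2 (-0.96). The higher were Tgfbi (1.05), Tgfb1 (0.81) and Id1 (0.61), and Tgfbi lost the call without the 4-OHT array of replicate 3 (adjusted p = 0.0569). Of 3 further probe sets of Tgfbi, values were 1.24, 0.98 and -0.01 (adjusted p = 0.00909, 0.0604 and 0.99 over all probe sets). Of 14 YAP and TEAD targets, 4 (28.6%) were lower and none higher: the clotting receptor gene F3 (-1.76), Lats2 (-1.08), Ankrd1 (-0.86) and Axl. The list median was -0.37, and between replicates 2 and 1 it was nearly as large, -0.30, with no gene called. F3 lost the call without any of 6 single arrays (highest adjusted p = 0.185, without the 0 h array of replicate 3), and Ankrd1 without the 4-OHT (adjusted p = 0.0751) or 0 h array of replicate 3. The Notch targets Heyl (-0.95, adjusted p = 0.0497) and Hes1 (-0.66, adjusted p = 0.0326) were the 2 of 9 Wnt and Notch genes that passed, both lower. This is 22.2% called, against 8.96% of all tested genes. Heyl and Hes1 were each lost without most single arrays (highest adjusted p = 0.239 and 0.17).

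Vim read 13.77 on average in replicate 3 and 13.87 in the rest, and Col1a2 12.23 and 12.37, so mesenchymal markers were bright in both, and 16 of 17 were tested. Their summed linear signal was 34030 to 37450 against 37350 to 52460. Pdgfrb, the receptor of pericytes and fibroblasts, was lower (6.41, 6.5 and 6.02 against 7.75 to 8.56; log2 -1.88, SE 0.24, adjusted p = 0.00183), as were Col1a1 and Thy1 (-1.01), and the other 13 did not pass. Of the tested mesenchymal markers 18.8% were called, against 8.96% of all tested genes. Thy1 lost the call without the vehicle array of replicate 3 (adjusted p = 0.0547). In RNA from whole cultures, fewer cells of a kind and less RNA per cell cannot be told apart.

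Among markers of other lineages, Plin2 (adipocyte list, 10.0 in replicate 3 and 9.8 in the rest), Acta1 (muscle, 6.66 and 9.10) and Nes (neural, 8.5 and 7.3) were bright, and several defining markers were near the floor. Of 14 epithelial markers 5 were tested, and Epcam (-1.09, adjusted p = 0.00267) and Krt19 (-1.08, adjusted p = 0.014) were lower. A further probe set of Epcam read 2.72 and 2.61, near the floor in both sets. It was not called and had the opposite sign (0.11, adjusted p = 0.895 over all probe sets). Cdh1 read 3.53 and 2.49, also near the floor. The sum of the 14 markers was 299.6 to 457.3 against 438.4 to 537.5. Of 14 macrophage and blood markers 7 were tested, with Cd14 higher by 0.66 (adjusted p = 0.0204, and 0.12 without the 4-OHT array of replicate 3), Ptprc near the floor (2.83 and 3.65), and overlapping sums of 439.4 to 513.7 and 420.4 to 521.6. Of 10 endothelial markers the 2 tested did not pass, Pecam1 read 2.88 and 2.78, and the sums overlapped (125.9 to 253.6 and 158.7 to 226.9). Of 11 muscle markers 4 were tested, and the sum of the 11 was 242.2 to 300.4 against 642.2 to 874.7. Most of that gap was Acta1 alone, with a scaled linear signal of 77.7 to 113 against 468.4 to 661. The other 3 tested did not pass. Acta1, skeletal actin, was lower by 2.44 (adjusted p = 4.81e-05). Myf5 was near the floor (2.32 and 2.68). Of 9 neural and glial markers on the array 8 were tested, with Nes (nestin) higher by 1.19 (adjusted p = 0.00061) and S100b lower by 1.73 (adjusted p = 0.0296, and 0.165 without the 4-OHT array of replicate 3), and a sum of 799.1 to 833.6 against 620.7 to 737.5. Of 8 adipocyte markers 4 were tested, Fabp4 was lower by 2.35 (adjusted p = 0.000326), Adipoq was near the floor (2.55 and 2.90), and the sums overlapped (1056 to 1503 and 1103 to 1546). Of the few tested, 40% of epithelial, 14.3% of macrophage and blood, and 25% of muscle, neural and adipocyte markers were called. Over all tested genes the share was 8.96%. The part of any of these markers in the other differences was not tested.

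**Figure D4:**
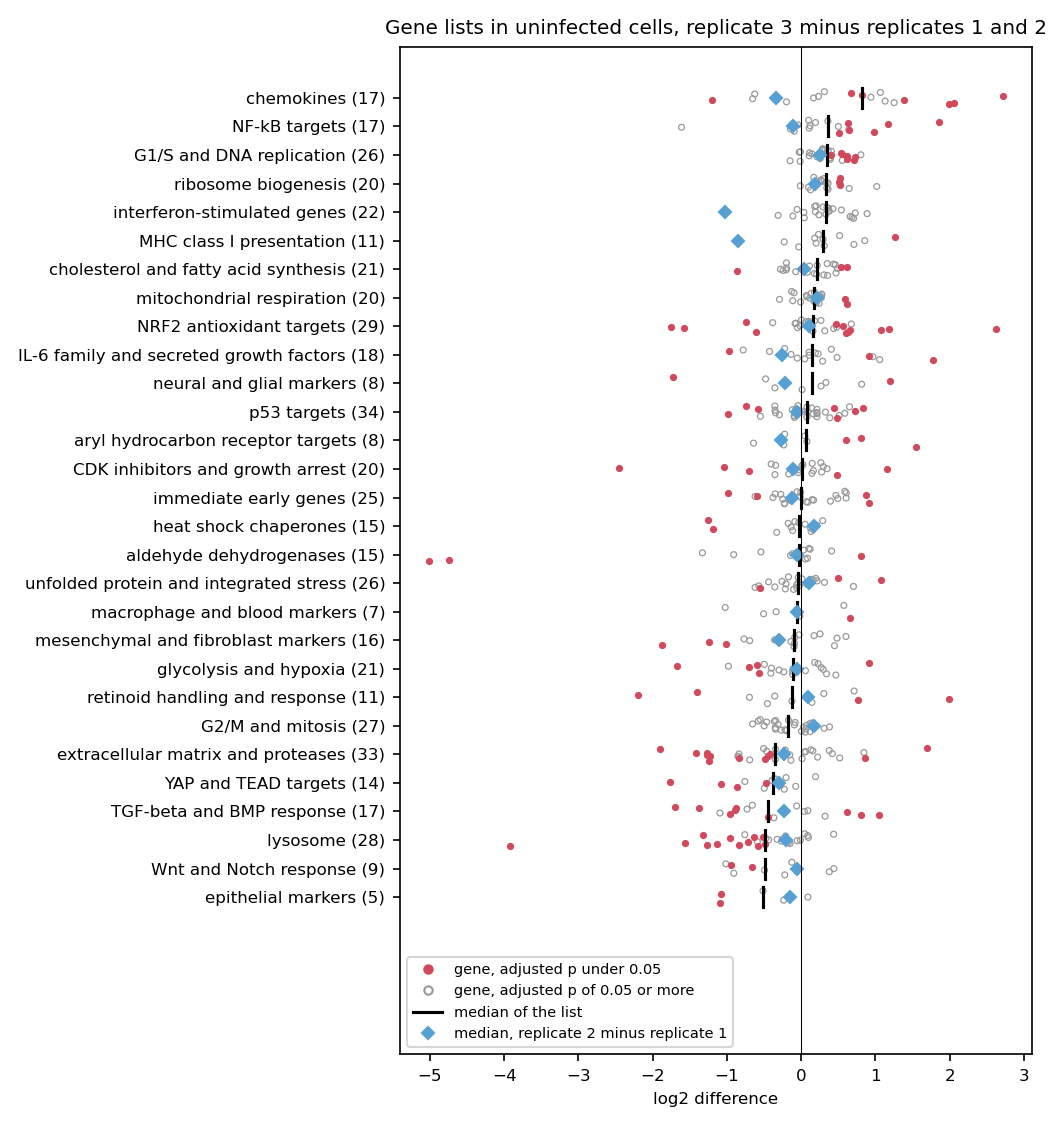
Log2 difference of replicate 3 minus replicates 1 and 2 in uninfected cells for each tested gene of the lists with 5 or more tested genes (number tested in brackets), with the list median as a bar and the median of replicate 2 minus replicate 1 as a diamond. Chemokines have the highest bar (0.82), lysosome lies at -0.48 with 12 red points all to the left, and the diamonds of interferon-stimulated genes (-1.02) and MHC class I (-0.85) lie away from their bars.

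The replication genes that passed were all higher, and no mitotic gene passed. Of 26 genes that start and carry out DNA replication, 7 were higher and none lower (26.9% called, against 8.96% of all tested genes). They were Mcm5 (0.73), Cdt1 (0.71), Mcm2 and Mcm7 (both 0.62), Pole (0.55), Rfc3 (0.53) and Pcna (0.40). The list median was 0.35, and 0.26 between replicates 2 and 1, with no gene called between those. A further probe set of Mcm2, almost as bright, was not called and had the opposite sign (-0.15, adjusted p = 0.928 over all probe sets). Mcm5, a subunit of the replicative helicase, read 10.61 at 0 h, 10.86 with 4-OHT and 10.65 with vehicle in replicate 3 and 9.80 to 10.24 in the rest (SE 0.13, adjusted p = 0.00901). Mcm5, Cdt1 and Mcm2 each lost the call without the 4-OHT (adjusted p = 0.101, 0.0917 and 0.102) or the vehicle array of replicate 3, and Cdt1 and Mcm2 also without its 0 h array. Of 27 genes of G2 and mitosis none passed, with a median of -0.17, and Cenpf had the largest difference (-0.65, SE 0.36, adjusted p = 0.319). Cenpf ran from -1.10 to -0.28 with single arrays left out, and was called without the 0 h array of replicate 2 (-0.91, adjusted p = 0.00753), against replicate 1 alone, with the 4 h arrays alone and with array weights. Among 20 CDK inhibitors and growth arrest genes, Gas1 (1.16) and Cdkn1a (0.49) were higher and Gas6, Ccng2 (-1.03) and Cdkn2d (-0.71) lower. This is 25% called, against 8.96% of all tested genes. A dimmer probe set of Gas1 was not called (-0.18, adjusted p = 0.884 over all probe sets). Ccng2 lost the call without any of 8 single arrays (highest adjusted p = 0.15, without the 0 h array of replicate 3).

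The p53 targets, the subject of the study's fusion, were mixed in these uninfected cells. Of 34 tested, 4 were higher and 3 lower (20.6% called, against 8.96% of all tested genes), with a median of 0.08. Ddit4, an inhibitor of mTOR, was higher by 0.84 (adjusted p = 0.0427, and 0.273 without the 4-OHT array of replicate 3), and Plk2 by 0.72. Perp, a desmosome protein, was lower by 0.98 (adjusted p = 0.00732) and Ephx1 by 0.75 (adjusted p = 0.00945). Without the vehicle array of replicate 3 the adjusted p of Perp was 0.0647, and without the 4-OHT array that of Ephx1 was 0.0944. The probe set of Esr1, the estrogen receptor gene, read 2.99 to 4.85 in all 9 uninfected arrays and 6.96 to 10.46 in the 9 p53ER arrays.

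Of the lists of growth and energy, 15% of ribosome biogenesis, 10% of mitochondrial respiration, 23.8% of glycolysis and hypoxia and 14.3% of cholesterol and fatty acid synthesis genes were called, against 8.96% of all tested genes. All but 1 of 20 ribosome biogenesis genes were positive, 3 were called higher (Nip7 0.53, Bop1 0.52, Polr1a 0.51), and the median was 0.34 (0.19 between replicates 2 and 1). Each lost its call without any of several single arrays, the 3 of replicate 3 included (highest adjusted p 0.116, 0.215 and 0.134). Of 20 genes of mitochondrial respiration, Ndufa4 (0.62) and Uqcrc1 (0.59) were higher and none lower, and both were lost without the 4-OHT or vehicle array of replicate 3 (highest adjusted p = 0.065 and 0.21). Of 21 genes of glycolysis and hypoxia, 4 were lower (Adm, Bnip3 -0.71, P4ha1 -0.60, Pfkl -0.57) and Vegfa was higher. Without the vehicle array of replicate 3 the adjusted p of Adm was 0.0635, and without the 4-OHT array that of Bnip3 was 0.13. Of 21 genes of cholesterol and fatty acid synthesis, Srebf2 (0.62) and Fasn (0.54) were higher and Dhcr7 (-0.86) lower, and each was lost without some replicate 3 arrays (highest adjusted p = 0.226, 0.117 and 0.0734).

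Stress and early response lists had 11.5% to 16% of genes called, against 8.96% of all tested genes. Of 15 heat shock genes, the small chaperones Hspb1 (-1.18, SE 0.13, adjusted p = 0.000611) and Cryab (-1.25) were lower and 13 did not pass. Cryab lost the call without the vehicle (adjusted p = 0.0633) or 0 h array of replicate 3. Of 26 genes of the unfolded protein and integrated stress responses, Slc7a11 and Mthfd2 (0.49) were higher and Ddit3 (-0.56) lower, with a median of -0.04, and each lost its call without the 4-OHT or vehicle array of replicate 3 (highest adjusted p = 0.297, 0.208 and 0.145). Of 25 immediate early genes, Fosl1 (0.92) and Dusp6 (0.88) were higher and Klf6 (-0.98) and Dusp1 (-0.60) lower. Without the 4-OHT array of replicate 3 the adjusted p was 0.0742 for Dusp6 and 0.0734 for Klf6.

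Replicates 2 and 1 differed from each other in 148 genes (1.36%), 70 (0.641%) higher and 78 (0.715%) lower in replicate 2, and 24 of these were among the 978. Interferon-stimulated genes were among these. Of 22 tested, 9 were lower in replicate 2 than in replicate 1, with a median of -1.02, while none was called in replicate 3 (median 0.34). Oasl2, an interferon-induced protein, read 6.25 to 7.19 in replicate 1, 4.09 to 4.39 in replicate 2 and 6.03 to 6.56 in replicate 3. Replicate 3 thus lay within the range of replicate 1 or just under it, and well above replicate 2 (replicate 3 minus 1 and 2, 0.89, SE 0.76, adjusted p = 0.557; replicate 2 minus 1, -2.32, adjusted p = 0.00589). Of 11 genes of MHC class I presentation, 4 were lower in replicate 2 (median -0.85). Only Psmb10, an immunoproteasome subunit, was called in replicate 3, which is 9.09% of the list against 8.96% of all tested genes. It read 8.62 to 8.67 against 7.08 to 7.77 (log2 1.26, SE 0.13, adjusted p = 0.00056).

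The p53ER arrays, which are not among the members, allow the same contrast, also chosen with earlier results of these data known. There 912 genes (8.35%) were called, 427 (3.91%) higher and 485 (4.44%) lower in replicate 3. The count was 272 without the 4-OHT array of replicate 3 and 1770 without the vehicle array of replicate 1. Without the 0 h or 4-OHT array of replicate 1 or 2, or the 0 h or vehicle array of replicate 3, it lay between 492 and 567. Called higher in both cell types were 183 genes, 44.2% of the uninfected and 42.9% of the p53ER calls, and 218 were lower in both, 38.7% and 44.9%. Of the genes called in uninfected cells, 94.9% of the higher and 90.6% of the lower had the same sign in p53ER cells, against 68.6% of all tested genes, and over all genes the differences correlated at r = 0.614 (Spearman 0.536), as a description. Whether arrays of 1 number in both cell types share a culture day or a hybridisation is not in the labels.

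Of the 4 markers, Gsta4 (3.51), Cx3cl1 (2.02) and Aldh1a1 (-4.04) differed in p53ER cells by amounts whose distance from the uninfected value did not pass the test (adjusted p = 0.309, 0.992 and 0.552). Ramp3 (2.67), Ccl5 (2.96), Sox2 (2.32), Rps4l (-3.92), Aldh1a7 (-4.79) and Prelp (-3.56) were called with the same sign as well. Ptn was not (1.54, adjusted p = 0.138): p53ER replicates 1 and 2 already ranged from 4.89 to 7.56, against 7.88 to 8.40 in replicate 3. Gpx3 was not either (-0.20, adjusted p = 0.814). Neither gene's distance between cell types passed the test (adjusted p = 0.409 and 0.177).

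The difference itself differed between cell types in 34 genes (0.311%), 20 (0.183%) with a higher and 14 (0.128%) with a lower value in p53ER cells. Gpnmb led by p: -3.93 in uninfected and -1 in p53ER cells (distance 2.92, SE 0.30, adjusted p = 0.000736). Of the lysosome list, Ctsd, Ctsb and Ctsl were also among the 34, and its median was 0.09 in p53ER cells. There 3 of its 28 tested genes were higher and 3 lower, against 3.91% and 4.44% of all tested genes. Ctsb was called in opposite directions, -0.49 in uninfected cells and 0.49 in p53ER cells, as was Hmox1, -0.61 and 0.73. Ctsd, Ctsb, Ctsl, Hmox1, Taldo1 and Txnrd1 are named here after their values were seen.

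Detoxification and mitotic genes were among the remainder. Of the NRF2 list, 5 genes had a larger value in p53ER cells (Nqo1 0.60 and 1.64, Ephx1 -0.75 and 0.65, Hmox1, Taldo1 -0.01 and 1.33, Txnrd1 0.32 and 1.26, uninfected first). Of its 29 tested genes 14 were called higher there and 2 lower, against 3.91% and 4.44% of all tested genes. Aldh3a1 (0.80 and 2.86), Tgm2 (-1.41 and -0.02), Acta1 (-2.44 and -0.81) and the hormone receptor gene Ghrhr (-1.93 and 0.86) likewise had higher values in p53ER cells. The mitotic genes Ccnb2 (0.12 and -1.24), Ccna2 (0.06 and -1.23) and Racgap1 (0.00 and -1.25), together with Dlk1 (1.37 and -0.20) and Cxcl10 (1.39 and -0.14), had lower values there. In p53ER cells 18 of 27 genes of G2 and mitosis were called lower in replicate 3 and none higher, with a median of -1.11. Of all tested genes 4.44% were called lower there. Esr1, the receptor gene of the fusion, had the largest distance, 3.13 (adjusted p = 0.0103). It was not called in uninfected cells (-0.76, adjusted p = 0.356) and was higher in replicate 3 of p53ER cells (2.38, adjusted p = 0.000537). There it read 9.40 to 10.46 in replicate 3 and 6.96 to 7.84 in replicates 1 and 2. The count of 34 rested on single arrays: it was 2 without the uninfected 0 h array of replicate 3 and 3 without the p53ER 4-OHT array of replicate 3, 11 and 16 without the uninfected vehicle or 4-OHT array of replicate 3, 59 without the p53ER vehicle array of replicate 1, 53 without the uninfected 0 h array of replicate 2, and 0 with the 4 h arrays alone, where 956 genes had an unadjusted p under 0.05.

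**Figure D5:**
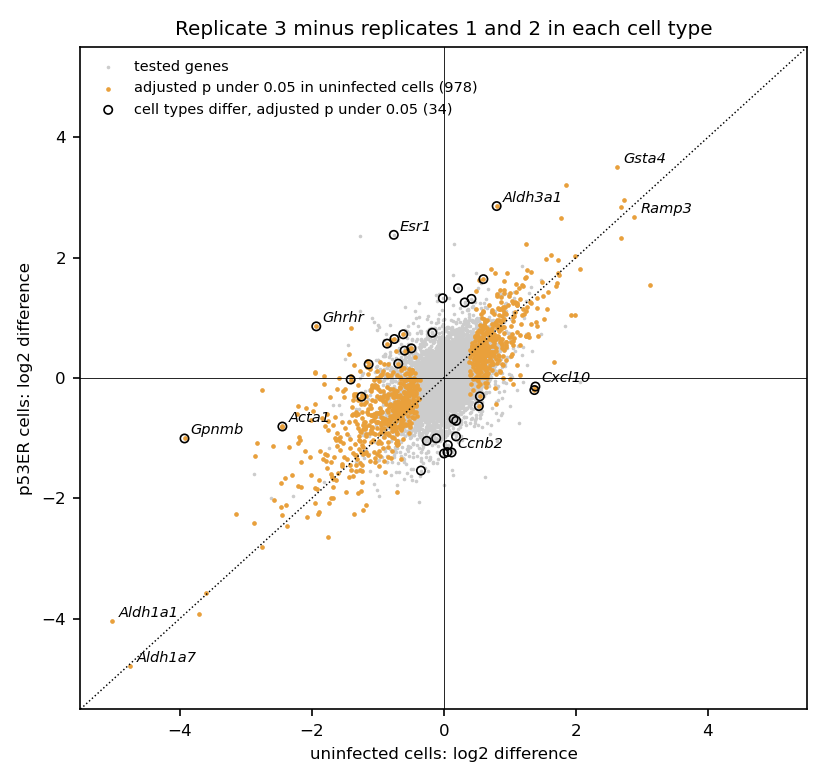
Log2 difference of replicate 3 minus replicates 1 and 2 in p53ER cells (y axis) against uninfected cells (x axis), 1 point per tested gene, with genes called in uninfected cells coloured and the 34 genes whose difference differed between cell types ringed. Most coloured points lie in the lower left and upper right, Aldh1a1 at -5.02 and -4.04, while Gpnmb at -3.93 and -1 lies above the dotted line of equal values.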

How the data were processed

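Gene expression was measured on 18 Affymetrix arrays of 45101 probe sets, 9 of uninfected and 9 of p53ER cells, with 1 array per treatment group and replicate number. The deposited values are linear signal intensities that the authors made with MAS5, per the submitters' processing notes, and the version is not given in the sources used here. Unscaled 2% trimmed means ran from 47.5 to 148 over the arrays, whose number limits the precision. Each array was scaled to a trimmed mean of 82.7, and log2 was taken after adding an offset of 4.13 (5% of that mean). Of the probe sets, 34958 had 1 gene in the platform annotation, 932 had several and 9211 were not listed, and 34754 matched the current gene table. The probe set with the highest mean over 18 arrays stood for each of 18194 genes, and the upper 60% by mean (10916 genes) were tested.

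Differences were tested with limma 3.58.1 (R 4.3.3, trended and robust variance, Benjamini-Hochberg adjustment, threshold 0.05). All p-values in the report come from these fits. The main fit held treatment group and a term for replicate 3. Replicate 2 was set against replicate 1 with 3 replicate levels, and the cell types were compared by an interaction over 18 arrays. On simulated data of the main comparison (10916 genes) the fit recovered 12.1% of genes changed by 0.5 on the log2 scale and 57.6% at 1. It recovered 88.4% at 2 and 96.1% at 3, and 4.9% of calls were false. Simulated arrays were drawn independently, with no effect shared by the arrays of a replicate number. The false share therefore does not cover calls that such shared effects would give.

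The members, the 32 gene lists and the tests were chosen with earlier results of these data known, among them that replicate 3 lay apart. Genes were named by rule: the 4 markers, the 15 largest called changes each way without overlap, up to 3 of each list and up to 5 each way for the difference between cell types. Further called members of a list are named to complete its count and were chosen after their values were seen. Alternatives changed the scaling, offset, filter, probe sets, samples, replicate terms, variance prior, array weights and minimum fold. Promoters came from the RefSeq table for GRCm38.p6. Figures were drawn with matplotlib 3.10.9.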

Additional observations from a re-analysis of the deposited data

Results flagged for a closer look

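In each of 3 genes of 101 checked, 1 of the 6 arrays of replicates 1 and 2 lay far from the others, by a gap above 0.625 of the group's range, which chance gives in about 1 group in 20. Slc7a11 read 4.21 in the 0 h array of replicate 2 and 5.17 to 5.38 in the others (0.82 of the range). Mthfd2 read 9.64 in that array and 9.09 to 9.28 in the others (0.646). Nfkbie read 4.36 in the 0 h array of replicate 1 and 4.93 to 5.24 in the others (0.644).

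The difference of replicate 3 was not the same in both cell types for 13 named genes, by the interaction test in limma. It was higher in p53ER than in uninfected cells by 3.13 for Esr1 (adjusted p = 0.0103), 2.92 for Gpnmb (adjusted p = 0.000736) and 2.79 for Ghrhr (adjusted p = 0.0103). It was also higher by 2.06 for Aldh3a1, 1.64 for Acta1, 1.40 for Ephx1, 1.38 for Tgm2 and 1.04 for Nqo1. It was lower, by -1.57 for Dlk1, -1.53 for Cxcl10, -1.36 for Ccnb2, -1.29 for Ccna2 and -1.26 for Racgap1.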

How the results depend on the processing

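None of the 94 called named genes changed sign in any alternative that tested it, and 39 were past the threshold in every alternative that tested them. The filter to the upper 40% of genes tested only 76 of the 94. The count of 978 was 1527 with replicate as 3 levels, 2545 with array weights and 92 with a minimum fold of 1.5. It was 231 to 2139 with single arrays left out, 307 without replicate 1 and 2561 without replicate 2. The count of 148 between replicates 2 and 1 was 6 without a trended, robust variance, and with quantile normalization 34.3% of its calls were higher against 47.3%. The count of 912 in p53ER cells ran from 272 to 1770 with single arrays left out. The count of 34 between cell types was 18 without the trended, robust variance, 0 with the 4 h arrays alone (956 at an unadjusted p under 0.05), 153 without 3 arrays that lay apart (an alternative chosen after seeing the data) and 2 to 59 with single arrays left out. The cause of these shifts was not tested.

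Uncalled values of 4 genes changed sign. Oasl2, 0.89 over all arrays and with a difference of -2.32 between replicates 2 and 1, was -0.27 without replicate 2 and 2.05 without replicate 1. Ccnb2 was -0.040 without replicate 1 and 0.28 without replicate 2, Ccna2 -0.16 and 0.27, and Racgap1 -0.10 and 0.11. With the 4 h arrays alone Ccna2 was -0.030 and Racgap1 -0.0081, and Racgap1 was -0.025 with quantile normalization. No paired analysis was possible because the replicate number is itself the comparison, so the arrays compared share no number. Signals near the offset, such as Aldh1a1 in replicate 3, limit the size of fold changes.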
